A study of Homo sapiens with 14 samples.

Results

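The comparison set mechanical against osmotic compression in Hep3B, a human hepatocellular carcinoma cell line labelled WT. Cells on transwell membranes under applied weights were compared with cells on the same kind of membrane in medium holding 3% polyethylene glycol (PEG), with 2 libraries in each group. Uncompressed Hep3B cells on the membranes, also 2 libraries, stood beside both as a common reference. The members were all genes with at least 1 CPM, a count scaled to the size of its library, in 2 of the 4 weight and PEG libraries, which kept 14217 of the 56479 genes in the table. All 14217 entered the test, and all 14217 were found by gene ID in GENCODE release 29 (GRCh38), which lists 12122 of them as protein coding. The filter fell in a dense part of the table: the second-highest of the 4 values was 1.011 CPM in the lowest member and 0.9964 CPM in the highest gene left out. Of the members, 378 reached 1 CPM in both weight libraries and neither PEG library, and 326 the reverse. Genes of these 2 kinds passed only through the group where they were high.

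The labels give neither the size of the weight nor the time under either treatment for Hep3B, so strength and duration cannot be told apart from the kind of compression. They name biological replicates only for another cell line, so p-values here measure the spread between labelled libraries, which may be technical. In bulk RNA, a change in every cell and a change in the make-up of the culture cannot be told apart. The series also holds HepG2, a hepatoblastoma line labelled WT, on membranes with and without weights and on dishes in isotonic or 4% PEG medium. The whole series has 14 libraries in 7 groups of 2.

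Osmotic compression draws water out of a cell, so that ions and macromolecules become more concentrated. Cells answer by moving ions and, over longer times, by collecting organic osmolytes through carriers under the transcription factor NFAT5. A weight presses on cells from outside and can also limit the exchange of gas and nutrients with the medium. Among the stress programmes a liver cell can use are those of the hypoxia-inducible factors (glycolysis, angiogenesis), of ATF4 (amino acid supply), of NRF2 (redox defence), of the metal sensor MTF1 (metallothioneins) and of SREBP2 (cholesterol synthesis).

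Several of these programmes are known for short DNA elements before their target genes, and stretches of 30 bases are shown for genes of the lists described below. For each list, they are 3 genes with a match in the 250 bases before the start, chosen by the size of their change. Not every gene of a list was eligible for this choice, so a gene that changed more may be left out. The start is that of RefSeq, so a stretch may lie inside the span that GENCODE gives the gene, as for CA9 and MT2A. Sequences are from RefSeq (GRCh38.p14), written 5′ to 3′ on the gene's own strand, with the match on either strand in capitals. For the hypoxia list, the match was the core of the hypoxia response element, ACGTG, which is also part of the E-box CACGTG.
CA9 (chr9:35673892-35673921): cagctctcgtttccaatgCACGTacagccc
LOX (chr5:122078349-122078378): ttgCACGTttccaatcgcattACGTGaaca
BHLHE40 (chr3:4979263-4979292): ACGTGcctggagtcacagggtagaaCACGT

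For the ATF4 list, the match was the composite element TGATGNAA.
CHAC1 (chr15:40953251-40953280): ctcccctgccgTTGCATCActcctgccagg
ASNS (chr7:97872458-97872487): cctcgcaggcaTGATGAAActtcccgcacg
ATF3 (chr1:212565205-212565234): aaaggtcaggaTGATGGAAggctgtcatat

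For the metallothionein list, it was the core of the metal response element, TGCACNC or TGCGCNC.
MT2A (chr16:56608422-56608451): agagccgggTGCGCCCggcccagTGCGCGC
MT1X (chr16:56682310-56682339): ggccccgcggTGCGCCCggcgctgggctca
SLC30A1 (chr1:211579192-211579221): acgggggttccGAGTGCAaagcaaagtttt

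For the chemokine list, it was the NF-kB element.
CXCL1 (chr4:73869304-73869333): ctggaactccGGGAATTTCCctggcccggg
CCL20 (chr2:227813753-227813782): tgatcaatgGGGAAAACCCCatgtggcaac
CXCL3 (chr4:74038749-74038778): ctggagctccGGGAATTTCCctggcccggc

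The hypoxia core stood in 14 of the 28 hypoxia genes with a promoter in the RefSeq table (50%) and in 18.5% of all 35116 promoters there. Other lists held it too, in 50% of glycolysis, 40% of TGF-beta response, 37% of mitosis and 5.88% of chemokine-list promoters. The ATF4 element stood in 3 of 23 ATF4-list promoters (13%) against 3.14% of all. The NF-kB element stood in 12 of 17 chemokine-list promoters (70.6%) against 5.07%. MT2A held 7 non-overlapping metal cores in its 250 bases and MT1X held 4, while 24.8% of all promoters held at least 1. Only 75% of the metallothionein list had a promoter in the table, so its share is not given. For the same reason the check was void over all members, of which 10429 (73.4%) matched by symbol. GC content differed too, with a median of 58% over all promoters, 67.2% for the hypoxia list and 60.8% for the chemokine list. A match describes letters in a window and nothing more.

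The 6 libraries held 21.2 to 25.8 M counts (M for 1e6), and members held at least 99.71% of the counts of each of the 4 libraries compared. Mitochondrially encoded genes took 1.83% to 3.6% of the counts, with the higher share in replicate 1 of each group. The first principal component held 79.1% of the variance and set the PEG libraries (-62.79 and -62.36) apart from the other 4 (28.95 to 34.86). The second held 13.1% and separated weight from uncompressed, with the weight libraries themselves at -16.05 and -26.49. All 12 hepatocyte and hepatoma markers were detected, with ALB between 18869 and 31385 CPM. The endothelial markers CDH5 and KDR and the immune markers CD3E, MS4A1 and TYROBP had no count in any of the 6 libraries, nor did ACTA2, a marker of stellate cells. Markers of other cells that were present and differed, PDGFRA, LUM and LYZ, are given further on.

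Most of the members differed between the treatments. With edgeR's quasi-likelihood test and a Benjamini-Hochberg adjusted p under 0.05, 9036 genes differed (63.6% of those tested). Of these, 4631 were higher under the weight (32.6%) and 4405 higher in 3% PEG (31%). A log2 difference of at least 1 as well, or 2-fold, was met by 1236 genes higher under the weight (8.69%) and 826 higher in PEG (5.81%). Every list below is to be read against these shares. The log2 differences of all genes had quartiles of -0.34 and 0.41 and a median of 0.02. Both libraries of one treatment lay beyond both of the other for 11475 genes (80.7%).

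The count depends on how much spread the fit is given. When the spread was estimated over the 10 transwell libraries of both lines, 8963 genes passed. When it was estimated over all 14 libraries of the series, which adds the HepG2 dish libraries, 4367 genes passed. Of these, 4364 were among the 9036. A test for a difference beyond 2-fold passed 1128 genes, 728 higher under the weight and 400 higher in PEG.

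Most of the distance came from the PEG side. Set against the uncompressed libraries that they share, 9071 genes changed in 3% PEG (63.8%) and 2756 under the weight (19.4%), by the same test. In PEG 4577 rose (32.2%) and 4494 fell (31.6%), and under the weight 1569 rose (11%) and 1187 fell (8.35%). At 2-fold the numbers were 1989 in PEG (14%) and 347 under the weight (2.44%). The weight count shifted when 1 library was left out. It fell without either uncompressed library or weight replicate 2, and rose without weight replicate 1. Such fits leave 1 library in a group, so they cannot say which calls rest on a single library. Of the 2756 genes, 56.9% were higher under the weight, and 41.6% of those called when libraries were scaled by their totals alone.

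**Figure D1:**
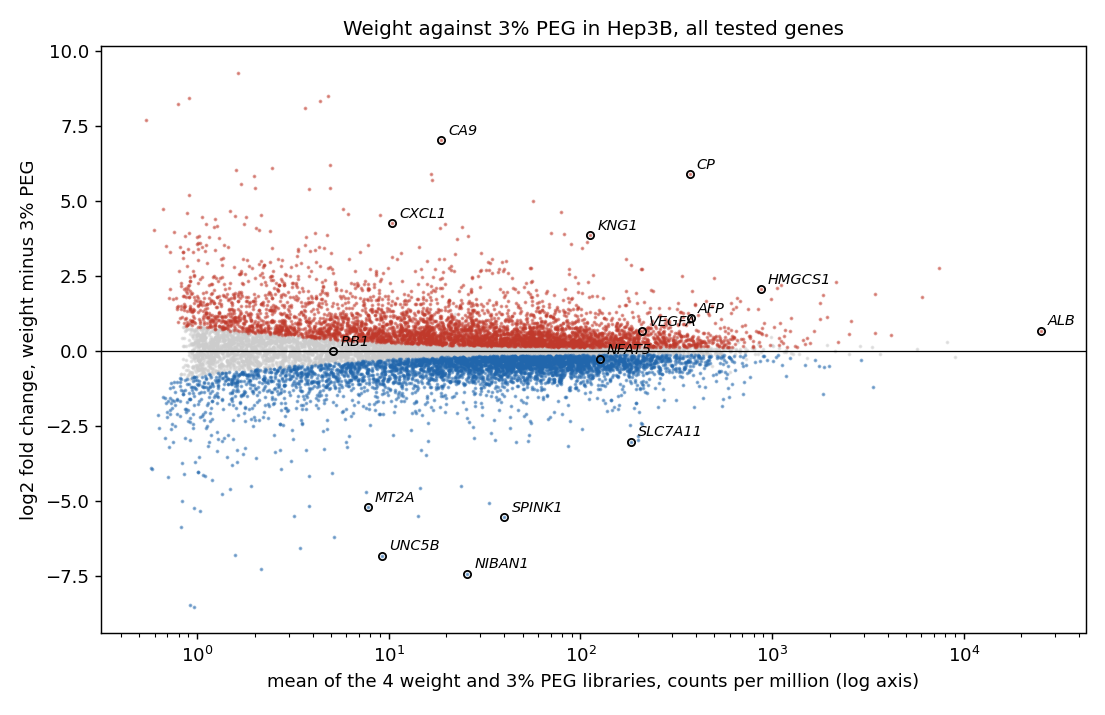
Each point is 1 of the 14217 genes, with its mean over the 4 weight and PEG libraries in CPM on a log axis and its log2 fold change, weight minus 3% PEG. Red points passed the test as higher under the weight (4631) and blue ones as higher in PEG (4405), and grey ones did not pass; circled genes met the rule for naming.

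The 15 largest differences in each direction were taken among genes averaging at least 5 CPM whose groups did not overlap. Of the 15 genes higher under the weight, 11 had risen under the weight against uncompressed cells and 1 had fallen. Of the 15 higher in PEG, 1 had risen under the weight and 3 had fallen. Over all genes 11% rose and 8.35% fell. The choice of the genes used the same weight libraries, so it favours rises in the first set and falls in the second. These counts give the weight side only. Some of the leading genes passed the filter only through the group where they were high. CA9, LTB and ANGPTL2 stayed below 1 CPM in both PEG libraries, and NIBAN1, UNC5B, RUNX1 and MT2A in both weight libraries. The 11 rises ran from 0.50 (LINC02532) to 5.41 (ANGPTL2) on the log2 scale. Several of these genes, such as CP, HAL and ATP2B2, were also lower in PEG than in uncompressed cells.

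**Figure D2:**
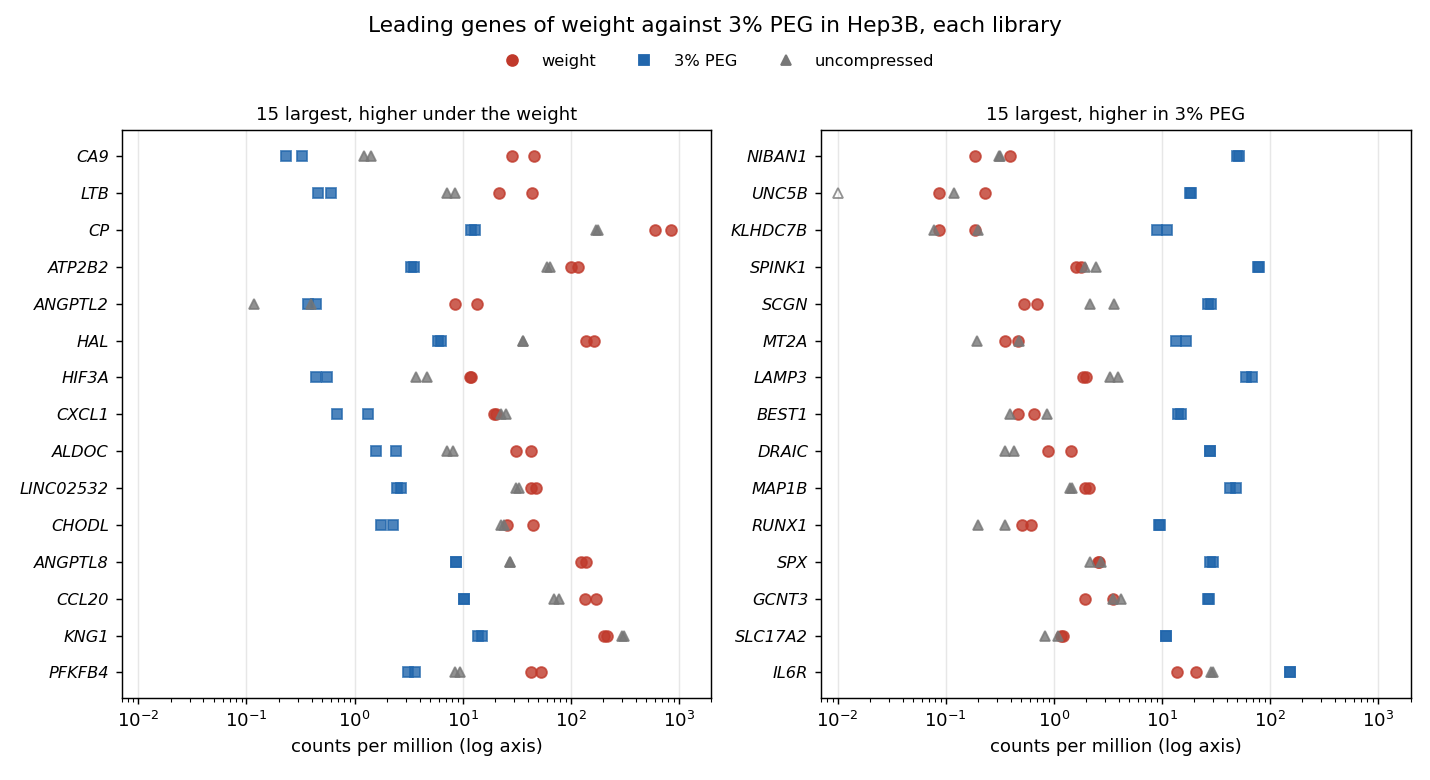
CPM on a log axis for the 15 genes with the largest difference in each direction; each marker is 1 library (circles weight, squares 3% PEG, triangles uncompressed), and the open triangle marks a library with no count, drawn at the left edge. In the right panel the PEG libraries stand above the other 4, from 9.08 CPM (KLHDC7B) to 155 CPM (IL6R).

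CA9, carbonic anhydrase 9, a membrane enzyme and a classic hypoxia target, showed the largest difference of the genes higher under the weight. It lies at chr9:35673856-35681159 (GRCh38), where 38.5% of its exonic bases overlap the antisense gene ARHGEF39; with strand use not stated, reads there cannot be told apart. ARHGEF39 itself was at 17.5 and 18.9 CPM under the weight and 15.2 and 12.9 CPM in PEG. The level of CA9 was 28.5 and 45.7 CPM under the weight, 0.232 and 0.323 CPM in PEG and 1.42 and 1.21 CPM uncompressed. The difference was 7.02 ± 0.47 on the log2 scale (SE, adjusted p = 0.000105). The weight libraries were far above the other 4, and the PEG libraries, at 5 and 8 counts, were the lowest.

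Ceruloplasmin (CP), the copper-carrying ferroxidase of plasma, was measured at 603 and 856 CPM under the weight, 13 and 11.9 CPM in PEG and 173 and 179 CPM uncompressed. It thus lay on either side of the reference, 2.05 log2 units up under the weight and down by 3.83 in PEG, and differed directly by 5.88 ± 0.27 (adjusted p = 0.000304). HAL, histidine ammonia-lyase of the liver, showed the same order, at 139 and 164 CPM against 5.89 and 6.34 CPM, with 36.4 and 36.3 CPM uncompressed.

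ATP2B2, a plasma membrane calcium pump, stood at 101 and 117 CPM under the weight and 3.34 and 3.51 CPM in PEG, against 60.6 and 64.4 CPM uncompressed. KNG1, kininogen, had 215 and 205 CPM under the weight and 13.9 and 15.1 CPM in PEG, below its 295 and 315 CPM in uncompressed cells in both treatments. Its difference of 3.85 ± 0.07 had the smallest p of all genes (adjusted p = 8.46e-22). LTB, lymphotoxin beta, ranged from 21.7 to 43.7 CPM under the weight and was 0.464 and 0.606 CPM in PEG. The test passed it directly (5.90 ± 0.74, adjusted p = 0.00603) but not for the weight against uncompressed (adjusted p = 0.0758).

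The other genes of this group were ANGPTL2 and ANGPTL8, secreted angiopoietin-like proteins, HIF3A, a hypoxia-inducible factor subunit, the chemokines CXCL1 and CCL20, the glycolytic ALDOC and PFKFB4, CHODL, and the noncoding LINC02532. Their log2 differences ran from 3.84 (PFKFB4) to 4.74 (ANGPTL2). ANGPTL2 was nearly unexpressed elsewhere, at 8.54 and 13.7 CPM under the weight and no more than 0.444 CPM in any other library.

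NIBAN1, a stress-induced protein of the FAM129 family at chr1:184790724-184974550, showed the opposite pattern. It had 49.7 and 52 CPM in PEG, 0.394 and 0.186 CPM under the weight, and 0.316 and 0.313 CPM uncompressed. The difference was -7.41 ± 0.17 (adjusted p = 5.7e-20), and the weight libraries did not separate from the uncompressed ones.

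UNC5B, a netrin receptor, was at 18.2 and 18.5 CPM in PEG and at most 0.233 CPM in the other 4 libraries. SPINK1, a secreted trypsin inhibitor often raised in liver tumours, was at 79.4 and 77.7 CPM in PEG against 1.62 and 1.77 CPM under the weight. LAMP3, a lysosomal membrane protein, was at 68.2 and 60.6 CPM against 1.97 and 1.86 CPM, with 3.91 and 3.28 CPM uncompressed, so that it had also fallen under the weight. In each of these genes both PEG libraries stood above the other 4.

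MAP1B, a microtubule-associated protein, rose from 1.42 and 1.48 CPM uncompressed to 43 and 48.5 CPM in PEG, with 2.1 and 1.96 CPM under the weight. RUNX1, a transcription factor, stood at 9.5 and 9.69 CPM in PEG and at most 0.613 CPM elsewhere. IL6R, the interleukin 6 receptor, was the most abundant of the 15, with 154 and 155 CPM in PEG, 20.8 and 13.7 CPM under the weight and 29.5 and 28.3 CPM uncompressed. BEST1, at 15.1 and 14.3 CPM in PEG, shares 1267 exonic bases with the antisense neighbour FTH1, which also rose in PEG (1007 and 1057 CPM against 403 and 361 CPM under the weight). Whether the counting used strand is not stated, so reads of this pair cannot be told apart. Of 184 named genes, 30 overlapped other genes in at least 10% of their exonic bases. Among them were CP (19.4%), KNG1 (15.4%), ANGPTL8 (28.6%) and BCL2L1 (43%), and most are not flagged one by one. The remaining genes were KLHDC7B, SCGN, MT2A, DRAIC, SPX, GCNT3 and SLC17A2, with log2 differences from -6.18 (KLHDC7B) to -3.19 (SLC17A2).

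Genes were grouped in 41 pathway lists and 4 marker lists, in which 860 of 993 symbols were tested. Named outside the selection rule, after their values were seen, were EPO, PDK1, P4HA1, BNIP3, DDIT4, MXI1, STC2, ANG, P4HA2, AK4, LDHA, SLC16A3 and HK2 among hypoxia and glycolysis genes. So were CHAC1, ATF4, CEBPG, DDIT3, PHGDH, PSAT1, SHMT2, MTHFD2, ASNS, SLC7A5, SLC1A5, SLC7A1, SLC38A1, TRIB3 and CBS among ATF4 genes, and TXNRD1, HMOX1, NQO1, FTL, AKR1C1, AKR1C2, MT1X, MT1E, MT1G and MTF1 among redox and metal genes. The others were SREBF2, PLIN4, CIDEC, G0S2, CXCL3, CXCL6, NFKBIA, NFKB1, NFKB2, PIEZO1 and ARHGEF39. The plot of genes by list shows both ends of the range.

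**Figure D3:**
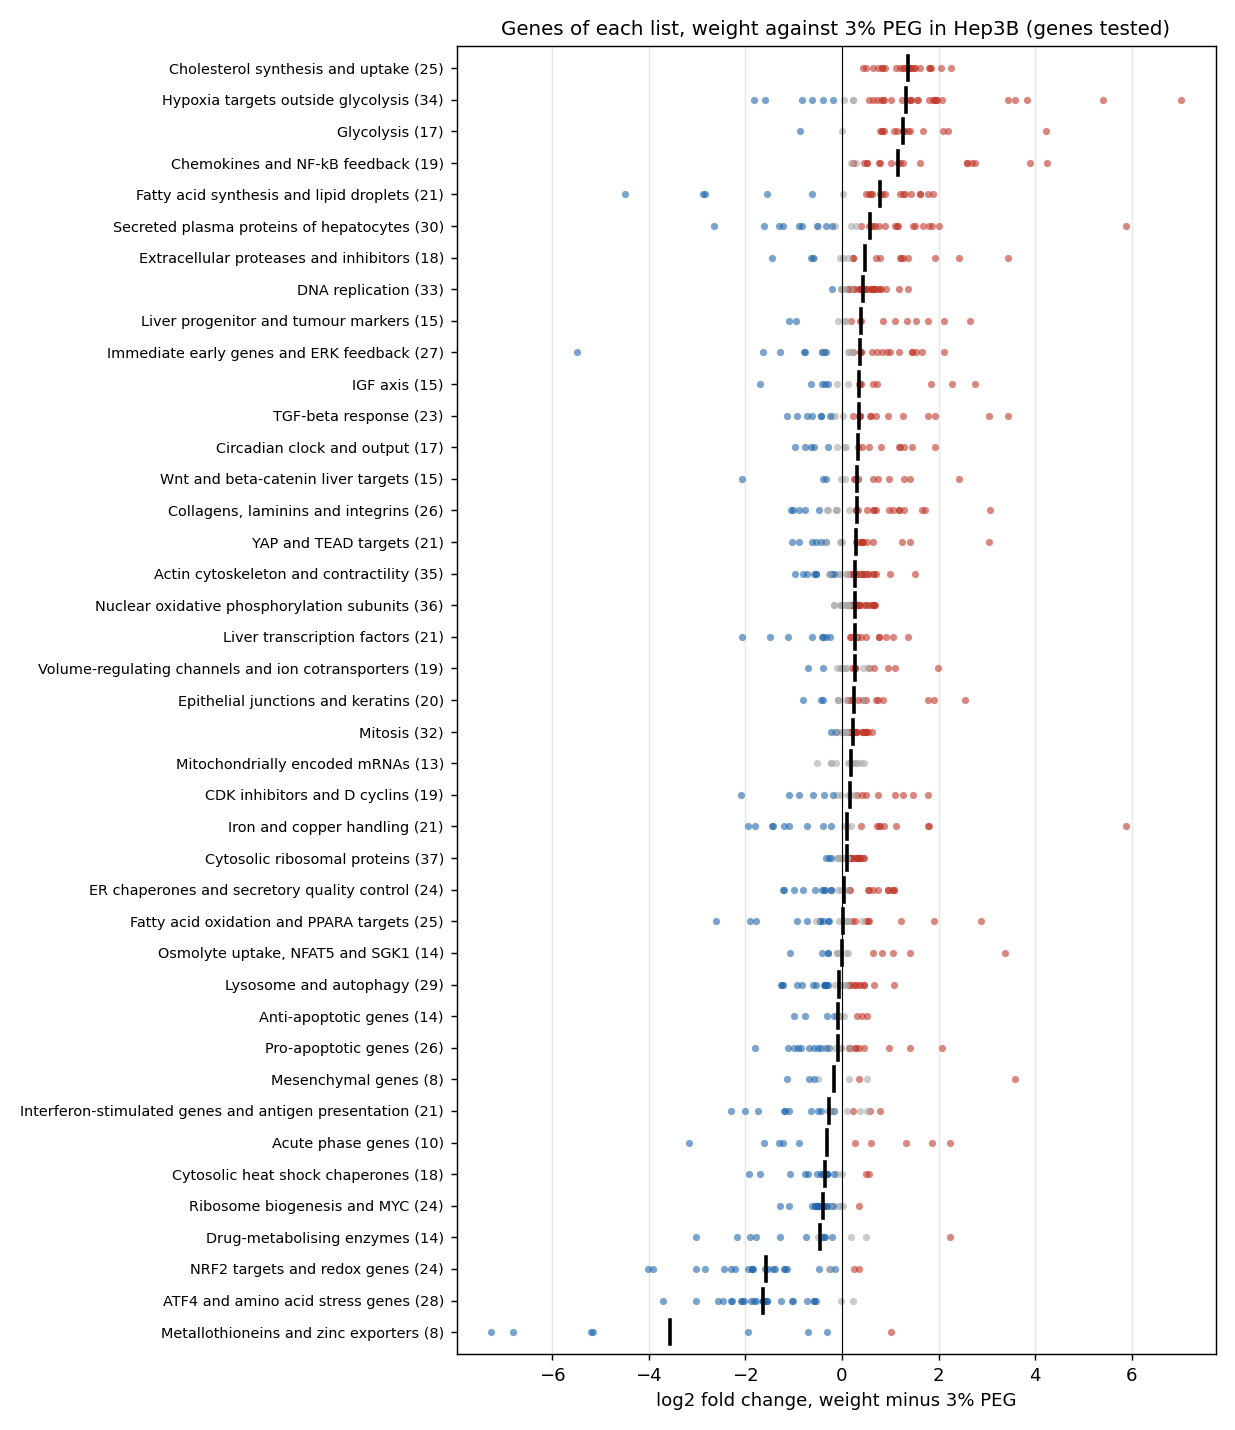
Log2 fold change, weight minus 3% PEG, of each tested gene (points) in the pathway lists with at least 8 tested genes, whose number stands in brackets; black bars are list medians, red and blue points passed the test as higher under the weight or in PEG, and grey ones did not. All 25 cholesterol genes lie to the right of 0, with a median of 1.37; the metallothionein and zinc median of -3.55 rests on 8 genes, 4 of which passed the filter through PEG alone.

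Hypoxia targets were mostly higher under the weight. Of 34 genes outside glycolysis, 25 were higher under the weight (19 at 2-fold) and 6 in PEG (2 at 2-fold). Their median was 1.33 on the log2 scale, and 3 of the 34 passed the filter through the weight libraries alone. Against uncompressed cells, 32 rose and none fell under the weight, while 12 rose and 9 fell in PEG.

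EPO, erythropoietin, the hormone of red cell production that liver cells make in hypoxia, had 6.04 and 8.9 CPM under the weight. It had 0 and 0.323 CPM in PEG and 0.395 and 0.391 CPM uncompressed. LOX, which crosslinks collagen, was at 142 and 189 CPM under the weight, 14.4 and 13.4 CPM in PEG and 57.2 and 56 CPM uncompressed (3.57 ± 0.17, adjusted p = 9.89e-06). BHLHE40, a repressor of the hypoxia response and the clock, was at 150 and 175 CPM against 41.9 and 42.9 CPM in PEG (1.93 ± 0.07). All 3 were higher in both weight libraries than in any other.

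PDK1, which turns pyruvate away from mitochondria, was at 73.2 and 95.9 CPM under the weight and 23 and 20.5 CPM in PEG. The mitophagy receptors BNIP3 (1.40) and BNIP3L (2.07) and the angiogenic peptide ADM (1.58) were also higher under the weight. Weight replicate 2 exceeded replicate 1 in many of them, as in CA9 and P4HA1 (209 against 137 CPM).

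Part of the list rose in both treatments. VEGFA, the main angiogenic factor, had 223 and 288 CPM under the weight, 168 and 157 CPM in PEG and 86.1 and 84.2 CPM uncompressed. DDIT4, an inhibitor of mTORC1 that hypoxia and ATF4 both induce, had 71 and 102 CPM, 75.3 and 72.5 CPM, and 17 and 15.6 CPM. Its difference of 0.23 between treatments did not pass (adjusted p = 0.386), nor did that of MXI1 (0.23, adjusted p = 0.0588). The 6 that were higher in PEG were VLDLR (-1.83), STC2 (-1.59), ANG, CA12, P4HA2 and AK4. STC2, a secreted glycoprotein, reached 162 and 170 CPM in PEG, 46.9 and 63.5 CPM under the weight and 22.6 and 23.6 CPM uncompressed, so that it rose in both.

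Glycolysis moved in the same direction. Of 17 genes tested, 15 were higher under the weight (11 at 2-fold) and 1 in PEG, with a median of 1.27. Under the weight 15 rose and 1 fell against uncompressed cells, and in PEG 2 rose and 11 fell. GAPDH, often used as a reference gene, was at 2326 and 2508 CPM under the weight, 1115 and 1182 CPM in PEG and 1352 and 1375 CPM uncompressed, a difference of 1.07 ± 0.05 (adjusted p = 3.15e-14). LDHA, which makes lactate, was at 1601 and 2072 CPM against 406 and 394 CPM, with 603 and 596 CPM uncompressed. ALDOC, an aldolase, was at 31.2 and 43.1 CPM against 2.41 and 1.58 CPM.

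The weight libraries lay above the uncompressed ones in LDHA, GAPDH and ALDOC, and the PEG libraries lay below. The gene higher in PEG was SLC16A1, a lactate carrier (142 and 143 CPM against 84.5 and 71.6 CPM), while the other lactate carrier on the list, SLC16A3, was higher under the weight (1.38). HK2, a hexokinase, rose in both treatments against uncompressed cells, by 1.16 under the weight and 0.34 in PEG.

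The ATF4 programme was higher in PEG almost throughout. Of 28 genes, 26 were higher in PEG (22 at 2-fold) and none under the weight, with a median of -1.63. One of the 28 passed the filter through the PEG libraries alone. In PEG 27 rose and 1 fell against uncompressed cells, and under the weight 5 rose and 7 fell.

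SLC7A11, the cystine importer and its partner SLC3A2, which carries it to the membrane, led the abundant genes. SLC7A11 had 328 and 326 CPM in PEG, 38 and 43.1 CPM under the weight and 34 and 38.4 CPM uncompressed (-3.01 ± 0.07, adjusted p = 6.57e-20). SLC3A2 had 296 and 319 CPM against 57.4 and 54.5 CPM (-2.46 ± 0.06). CHAC1, which degrades glutathione, had 69.9 and 76.1 CPM against 12.3 and 12.5 CPM, with 12 CPM in each uncompressed library. In all 3 genes the weight libraries lay at the uncompressed level and the PEG libraries far above it.

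The transcription factors of the list were ATF4 itself (-0.73), its partner CEBPG (-0.53), ATF3 (-1.63) and DDIT3, known as CHOP (-2.30). Enzymes of serine and one-carbon metabolism followed, PHGDH (-1.64), PSAT1 (-1.55), SHMT2 (-1.26) and MTHFD2 (-1.63), with asparagine synthetase, ASNS (-2.09). Carriers of amino acids did likewise, SLC7A5 (-2.03), SLC1A5 (-1.88), SLC7A1 (-1.78) and SLC38A1 (-1.01). TRIB3, a feedback inhibitor of ATF4, rose in both treatments, from 41.3 and 38.1 CPM to 67.7 and 73.4 CPM under the weight and 211 and 228 CPM in PEG. The 2 genes that did not pass were DDIT4 and CBS (-0.02, adjusted p = 0.877).

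NRF2 targets and redox genes gave a similar picture, though SLC7A11 and ME1 count here as well as in other lists. Of 24 genes, 21 were higher in PEG (18 at 2-fold) and 2 under the weight, with a median of -1.57, and 4 passed the filter through PEG alone. Against uncompressed cells 21 rose and 2 fell in PEG, and none rose and 4 fell under the weight. GCLC, the catalytic subunit of the enzyme that limits glutathione synthesis, had 354 and 355 CPM in PEG, 67.7 and 62.7 CPM under the weight and 70.3 and 70.5 CPM uncompressed. ME1, which makes NADPH, had 357 and 344 CPM in PEG against 54.3 and 43.8 CPM (-2.83 ± 0.08).

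Thioredoxin reductase TXNRD1 (-1.85), heme oxygenase HMOX1 (-1.94), the quinone reductase NQO1 (-1.84) and the ferritin chains FTH1 (-1.43) and FTL (-1.20) followed. The 2 higher under the weight were PGD (0.35) and TALDO1 (0.25) of the pentose phosphate pathway, both of which had fallen in PEG. AKR1C1 and AKR1C2 are near-identical copies, and how the counting split their reads is not given in the sources used here.

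Metallothioneins, small proteins that bind zinc and copper, were listed with zinc carriers and their regulator. Of 14 genes 8 were tested, and 4 of these passed the filter through PEG alone. Of the 8, 7 were higher in PEG (5 at 2-fold) and 1 under the weight. MT2A, at chr16:56608199-56609497, had 13.4 and 16.8 CPM in PEG, 0.35 and 0.466 CPM under the weight and 0.474 and 0.195 CPM uncompressed (-5.20 ± 0.26, adjusted p = 3.16e-14). MT1X had 7.37 and 7.47 CPM in PEG and no more than 0.356 CPM in any other library. MT1E had 4.13 and 4.4 CPM and MT1G 3.15 and 3.07 CPM in PEG, with 0 and 0.0466 CPM (1 count) in the weight libraries for each, so no fold is given.

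The zinc exporter SLC30A1 rose with them, to 259 and 239 CPM in PEG from 85.9 and 86.3 CPM uncompressed, and was 67.1 and 62.6 CPM under the weight. MTF1, the zinc sensor that drives these genes, differed by -0.69 ± 0.09 (SE). The gene on the other side was the zinc importer SLC39A10, at 196 and 192 CPM under the weight and 96.4 and 95.4 CPM in PEG. Metallothionein genes are close copies of each other, so reads may be split among them.

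Cholesterol synthesis and uptake was the list whose tested genes all moved one way. All 25 were higher under the weight, 18 at 2-fold, with a median of 1.37. In PEG all 25 had fallen against uncompressed cells (median -0.96), and under the weight 18 had risen and 1 had fallen (median 0.27). HMGCS1, which makes the precursor of mevalonate, was at 1395 and 1409 CPM under the weight, 355 and 321 CPM in PEG and 1119 and 1112 CPM uncompressed (2.05 ± 0.06, adjusted p = 7.12e-19). FDPS, which makes farnesyl diphosphate, was at 484 and 486 CPM, 160 and 158 CPM, and 316 and 303 CPM (1.61 ± 0.05).

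In both genes the PEG libraries lay below the reference and the weight libraries above it, with the larger step in PEG. SREBF2, which regulates the pathway, shared the direction (0.84).

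Fatty acid synthesis and lipid droplet genes divided. Of 21, 15 were higher under the weight (8 at 2-fold) and 5 in PEG (4 at 2-fold), with a median of 0.79; 2 passed the filter through PEG alone. SCD, which desaturates fatty acids, was at 5187 and 5592 CPM under the weight, 1492 and 1429 CPM in PEG and 3345 and 3438 CPM uncompressed. PLIN2, a coat protein of lipid droplets, was at 948 and 1093 CPM, 303 and 294 CPM, and 479 and 466 CPM. Both rose under the weight and fell in PEG. The 5 higher in PEG were ME1, DGAT2 (-1.56), which makes triglyceride, the droplet proteins PLIN4 and CIDEC, and the lipase inhibitor G0S2, at 3.75 and 3.55 CPM in PEG and at most 0.175 CPM elsewhere.

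Fatty acid oxidation and PPARA targets had no common direction, with 8 of 25 higher under the weight and 10 in PEG, 1 of the 25 having passed the filter through PEG alone. FABP1, the liver fatty acid carrier, was at 302 and 341 CPM under the weight and 44.5 and 43.1 CPM in PEG. ACSL1, which activates long-chain fatty acids, was at 30.4 and 27.1 CPM against 173 and 176 CPM.

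Chemokines and NF-kB feedback genes were higher under the weight, and the difference lay in PEG. Of 19 tested, 17 were higher under the weight (11 at 2-fold) and none in PEG, with a median of 1.17; 2 passed the filter through the weight libraries alone. Against uncompressed cells 14 fell and 1 rose in PEG (median -1.22), and 5 rose and 2 fell under the weight (median 0.02). CXCL1, a neutrophil attractant, was at 19.4 and 20.2 CPM under the weight, 0.695 and 1.33 CPM in PEG and 25.3 and 22.7 CPM uncompressed (4.25 ± 0.17, adjusted p = 1e-15). CXCL8 was at 66.5 and 76.4 CPM, 12.9 and 10.9 CPM, and 69.9 and 70.7 CPM.

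CXCL5 and CXCL6, of the same chemokine group, differed by 2.69 and 2.59. CCL20, which attracts cells bearing CCR6, was among the 5 that rose under the weight, to 136 and 172 CPM from 77.3 and 69.7 CPM, with 10.3 CPM in each PEG library. The inhibitor NFKBIA, itself induced by NF-kB, differed by 1.21, while the subunits NFKB1 (0.23) and NFKB2 (0.19, adjusted p = 0.061) differed little.

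Interferon-stimulated and antigen presentation genes numbered 11 of 21 higher in PEG (6 at 2-fold) and 3 under the weight, and 2 of the 21 passed the filter through PEG alone. IRF1, an interferon-induced transcription factor, was at 21.6 and 22.5 CPM in PEG and between 4.98 and 6.36 CPM in the other libraries.

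Secreted plasma proteins of hepatocytes went both ways. Of 30, 17 were higher under the weight (10 at 2-fold) and 9 in PEG (4 at 2-fold), and 2 passed the filter through PEG alone. Complement C3 was at 2780 and 3014 CPM under the weight, 781 and 810 CPM in PEG and 2870 and 3076 CPM uncompressed. The fibrinogen chains were opposite: FGA had 281 and 269 CPM under the weight, 855 and 819 CPM in PEG and 355 and 361 CPM uncompressed, and FGG differed by -1.23. Albumin, ALB, was 30649 and 31385 CPM under the weight, close to 31283 and 30667 CPM uncompressed, and 19951 and 18869 CPM in PEG (0.68 ± 0.04).

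AFP, alpha-fetoprotein, the fetal albumin of liver tumours, fell in both treatments, from 721 and 709 CPM to 465 and 561 CPM under the weight and 256 and 225 CPM in PEG. Among 21 liver transcription factors, 12 were higher under the weight and 8 in PEG. NR5A2 (0.90) was higher under the weight, and CEBPB (-2.06) and ATF5 (-1.50) in PEG. CEBPB, a factor of acute phase and stress, was at 36.1 and 36.8 CPM in PEG and from 7.78 to 8.9 CPM elsewhere. Of 14 drug-metabolising enzymes tested, 2 of which passed the filter through PEG alone, 10 were higher in PEG, among them UGT2B4 (-1.27) and GSTA2 (-3.02). CYP3A7, a fetal cytochrome that shares 41.9% of its exonic bases with other entries, was higher under the weight (2.24).

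Genes known for osmotic stress did not separate the treatments as a group. Of 14 genes on the osmolyte, NFAT5 and SGK1 list, 5 were higher under the weight and 4 in PEG, with a median of 0.00, and 1 passed the filter through the weight libraries alone. NFAT5 had 132 and 144 CPM in PEG, 113 and 115 CPM under the weight and 94.3 and 108 CPM uncompressed (-0.28 ± 0.06, adjusted p = 0.000557). That call was lost when the 10 transwell libraries (adjusted p = 0.324) or all 14 libraries (adjusted p = 0.488) gave the spread.

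The inositol carrier SLC5A3, a textbook NFAT5 target, was between 64.8 and 74.1 CPM in all 6 libraries, and its difference of 0.08 did not pass (adjusted p = 0.289). The taurine carrier SLC6A6 was lower in PEG (44.4 and 46.3 CPM) than under the weight (81.5 and 80.8 CPM) or uncompressed (63.5 and 63.1 CPM). SGK1, a kinase that hyperosmotic stress induces in many cells, was lowest in PEG, at 45.3 and 49.7 CPM, with 102 and 96.2 CPM under the weight and 143 and 147 CPM uncompressed. AKR1B1, the aldose reductase that makes sorbitol, was not tested, with at most 3 counts in any of the 6 libraries. HSPA4L, a chaperone first described in osmotic stress, was the gene of the list that most favoured PEG, at 80.2 and 79.5 CPM against 40.2 and 35.2 CPM.

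Channels and cotransporters of volume regulation leaned to the weight, with 9 of 19 higher there and 2 in PEG. SLC12A2, the cotransporter that brings sodium, potassium and chloride into shrunken cells, was at 157 and 152 CPM in PEG, 570 and 656 CPM under the weight and 543 and 564 CPM uncompressed (1.99 ± 0.06, adjusted p = 3.17e-17). The sodium pump subunit ATP1B1 was also lower in PEG (443 and 432 CPM against 708 and 676 CPM). LRRC8D, a subunit of the volume-regulated anion channel, was higher there (157 and 154 CPM against 101 and 90.7 CPM). The mechanically gated channel PIEZO1 was lower in PEG (46.2 and 48.3 CPM) than under the weight (68.6 and 70.6 CPM) or uncompressed (71.9 and 71.6 CPM).

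Growth genes shifted by small amounts. Of 33 DNA replication genes, 25 were higher under the weight, only 2 of them at 2-fold, and 1 in PEG, with a median of 0.44. Against uncompressed cells 27 fell in PEG and 9 under the weight. UHRF1, which maintains DNA methylation, was at 88.9 and 92.3 CPM under the weight and 34.3 and 35.9 CPM in PEG, and thymidine kinase TK1 differed by 1.17. With all 14 libraries in the fit 11 of the 33 were higher under the weight, and none in PEG.

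Of 32 mitosis genes 20 were higher under the weight and 2 in PEG, none at 2-fold. CDKN1A, the p21 inhibitor of cell cycle kinases, rose in both treatments, from 0.988 and 1.17 CPM to 4.07 and 2.7 CPM under the weight and 13.5 and 15.3 CPM in PEG. CDKN1C (1.26) and CCNG2 (1.79) differed in the other direction. The tumour suppressor RB1 differed by -0.02 ± 0.18 (adjusted p = 0.945), at 4.64 to 5.65 CPM in the 4 libraries.

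Ribosome biogenesis was the reverse of replication, with 19 of 24 genes higher in PEG and 1 under the weight. Most differences were small, with a median of -0.40 and 2 at 2-fold, and 10 were higher in PEG with all 14 libraries in the fit. MYC, which drives growth and ribosome genes, was at 179 CPM in both PEG libraries, 80 and 67.9 CPM under the weight and 84.7 and 93.4 CPM uncompressed. Of 36 nuclear genes for oxidative phosphorylation, 24 were higher under the weight and none in PEG, none at 2-fold, with a median of 0.27 and 31 that had fallen in PEG. With all 14 libraries, 8 of the 36 passed. The 13 mitochondrially encoded mRNAs had a median of 0.18, and their share of counts differed between replicates of each group.

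Cytosolic heat shock chaperones leaned to PEG, with 14 of 18 higher there (3 at 2-fold), such as DNAJB4 (-1.70). The chaperones of the endoplasmic reticulum divided, 11 higher under the weight and 10 in PEG. The folding chaperones HSP90B1 (1.08) and CALR (0.94) were higher under the weight. HERPUD1 (-1.22) and ERN1 (-1.20), of the unfolded protein response, were higher in PEG. Both of the latter had also risen under the weight, by 0.37 and 0.43, against 1.59 and 1.63 in PEG.

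Mechanical and matrix lists held more genes higher under the weight than in PEG, with exceptions in each. Collagens, laminins and integrins numbered 15 of 26 higher under the weight (7 at 2-fold) and 5 in PEG (2 at 2-fold), and 3 passed the filter through the weight libraries alone. Extracellular proteases and inhibitors numbered 11 of 18 (7 at 2-fold) and 3 (1 at 2-fold), with 1 that passed through the weight libraries alone. TGF-beta response genes numbered 13 and 7 of 23. YAP and TEAD targets numbered 11 higher under the weight and 6 in PEG of 21. Against uncompressed cells, 3 YAP and TEAD targets rose and 6 fell under the weight, and 4 rose and 11 fell in PEG. Collagens, laminins and integrins had 8 up and 4 down under the weight, and 9 up and 12 down in PEG. Proteases and inhibitors had 5 up and 3 down, and 3 up and 9 down. TGF-beta response genes had 9 up and 6 down, and 7 up and 10 down. Of the standard reporters, CCN2 was at 52.4 and 43.1 CPM under the weight, 19.5 and 21 CPM in PEG and 68.3 and 68.6 CPM uncompressed, so that it fell in both treatments. CCN1 differed by 0.36 ± 0.10 (adjusted p = 0.00225, lost without PEG replicate 1 at adjusted p = 0.0575). ANKRD1 did not pass (-0.36, adjusted p = 0.251), but did without weight replicate 1 (-0.71, adjusted p = 1.92e-07); that library stood at 36.7 CPM and weight replicate 2 at 23.8 CPM.

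TGFB2, a TGF-beta ligand, was at 19.3 and 20.1 CPM under the weight, 2.5 and 2.26 CPM in PEG and 11.3 and 11.8 CPM uncompressed (3.05 ± 0.14). COL18A1, a basement membrane collagen, was at 278 and 270 CPM under the weight and 82.2 and 90.9 CPM in PEG. It differed by only -0.02 between weight and uncompressed. Among the 5 matrix genes higher in PEG were the integrins ITGA6 (-0.89) and ITGAV (-0.76). Also higher in PEG were N-cadherin, CDH2 (-1.14), and vimentin, VIM (-0.57). Of 20 epithelial junction and keratin genes, 11 were higher under the weight (3 at 2-fold) and 3 in PEG. KRT23 (2.55) and KRT19 (1.77) were among the 11, though neither rose under the weight against uncompressed cells (-0.01 and -0.52). Actin cytoskeleton genes numbered 19 higher under the weight and 9 in PEG of 35, with MYL9, a light chain of contractile myosin, at 1.52.

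Apoptosis genes were mixed: of 26 pro-apoptotic genes, 1 of which passed the filter through the weight libraries alone, 9 were higher under the weight and 11 in PEG, and of 14 anti-apoptotic genes 3 and 4. BNIP3L (2.07) was higher under the weight, and the death receptor TNFRSF10B (170 and 175 CPM in PEG, 85.9 and 87.7 CPM under the weight, 63.6 and 63.4 CPM uncompressed) was higher in PEG. BCL2L1 (0.41) and BIRC3 (0.52) were higher under the weight, and XIAP (-0.32) and BAG3 (-0.77) in PEG. Autophagy genes ULK1 (-1.21) and MAP1LC3B (-0.92) were higher in PEG. The lysosomal protease CTSD (1.08), up to 57.5% of whose exonic bases overlap other genes, was higher under the weight.

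IGF2, a fetal growth factor, was among the most abundant mRNAs that separated the treatments. It had 12032 and 13724 CPM under the weight, 1859 and 1955 CPM in PEG and 7602 and 8643 CPM uncompressed (2.76 ± 0.08, adjusted p = 2.2e-11). H19, the noncoding RNA of the same imprinted locus, was at 3376 and 3734 CPM, 723 and 737 CPM, and 2360 and 2658 CPM (2.28 ± 0.06). For both the PEG libraries were the lowest and the weight libraries the highest. A second GENCODE entry covers the exons of IGF2, so how its reads were assigned is uncertain. DKK1, a secreted Wnt inhibitor (806 and 877 CPM against 155 and 161 CPM), and CD24 (2.11) shared the pattern, while LEF1, a Wnt effector, was higher in PEG (-2.07).

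**Figure D4:**
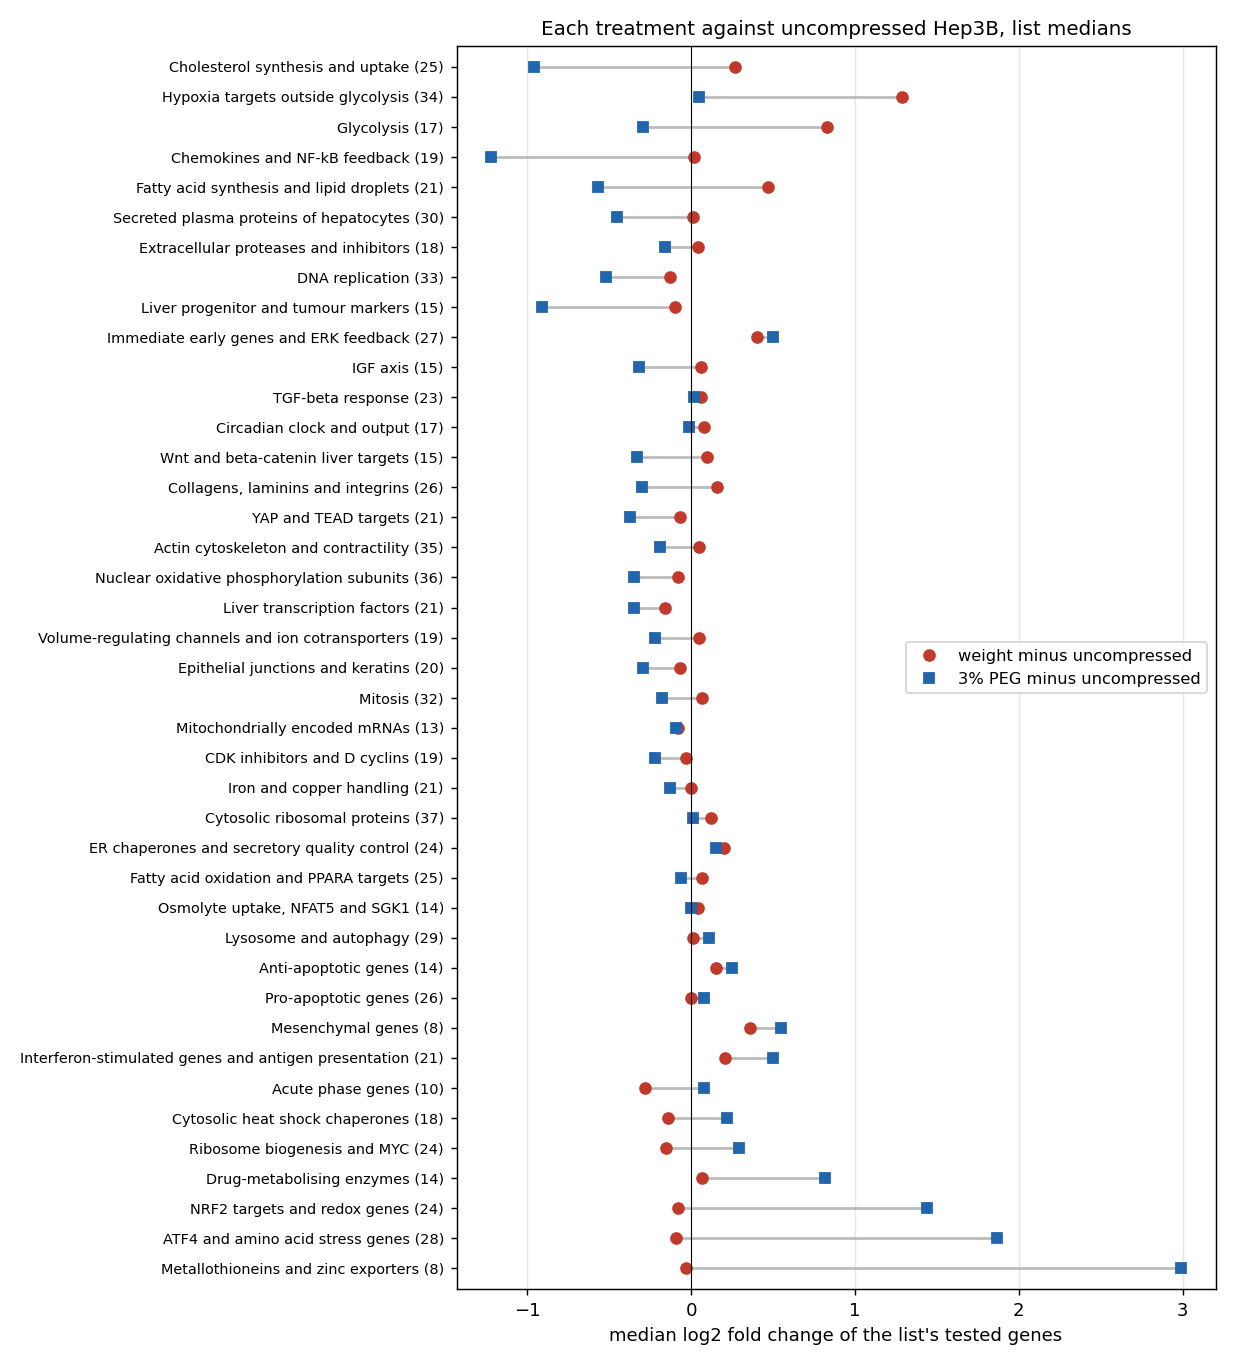
Median log2 fold change of the tested genes (number in brackets) of the pathway lists with at least 8 tested genes, for weight minus uncompressed (red circles) and 3% PEG minus uncompressed (blue squares); both share the uncompressed libraries. The PEG medians spread from -1.22 (chemokines) to 2.99 (metallothioneins and zinc, with 4 of 8 genes passing through PEG alone), and the weight medians lie within 0.5 of 0 except for hypoxia targets (1.29) and glycolysis (0.83).

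Some genes used as markers of other cells were present and differed. PDGFRA was at 34.9 and 30.9 CPM under the weight, 6.07 and 4.52 CPM in PEG and 43 and 42.4 CPM uncompressed. LUM was at 14 and 11.5 CPM, 19.2 and 19.1 CPM, and 7.23 and 9.77 CPM, and LYZ at 17 and 13.9 CPM, 4.22 and 4.52 CPM, and 15.7 and 16 CPM. The summed level of the 12 fibroblast and stellate markers was 60.9 to 66.4 CPM under the weight, 39.2 to 39.3 CPM in PEG and 59.3 to 61.7 CPM uncompressed. Of these, 5 passed the filter, while COL3A1, DES, THY1 and POSTN were at most 0.14 CPM. The lower sum in PEG lay mostly in PDGFRA, as LUM was highest in PEG. PDGFRB was at 13.2 and 14 CPM under the weight, 9.46 and 11.8 CPM in PEG and 6.01 and 6.21 CPM uncompressed. The 12 immune markers summed to 15.8 to 19.5 CPM under the weight and 7.46 to 7.76 CPM in PEG, mostly LYZ. The 10 endothelial markers summed to at most 4.52 CPM.

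HepG2 cells under weights give a separate reading of the weight side, without a 3% PEG group. In HepG2, 6612 of 13389 genes tested changed under the weight (49.4%) by edgeR's quasi-likelihood test. Of the 15 genes most raised under the weight relative to PEG in Hep3B, 11 were tested in HepG2, where 5 rose and 3 fell. CA9 rose in HepG2 from 29.3 and 27.9 CPM to 79.89 and 67.55 CPM (1.37), and CP from 1097 and 1095 CPM to 3020 and 3384 CPM (1.55). ANGPTL2 rose as well (1.44), with ANGPTL8 (0.39) and PFKFB4 (0.29), while HAL, CCL20 and KNG1 fell.

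Of the 15 genes most raised in PEG, 8 were tested in HepG2, where 4 rose under the weight, RUNX1 (1.03), SPINK1 (1.10), GCNT3 (0.89) and MT2A (0.31), and SCGN fell (-1.07). MAP1B was higher in both HepG2 weight libraries (111 and 164 CPM against 50.4 and 60.2 CPM). The direct contrast cannot be formed in HepG2, whose PEG libraries came from dishes at 4%. Whether the weight acted differently in the 2 lines was not tested here.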

How the data were processed

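RNA was extracted with an RNeasy kit and sequenced as paired reads of 100 bases on a HiSeq or NovaSeq, per the labels' protocols. The authors deposited a table of raw read counts per gene; STAR, DESeq2 and GRCh38 (hg38) are named without versions or roles in the submitters' processing notes. No label or header gives the counting tool, the annotation or the use of strand. Columns were matched to samples by name, with 0 left unmatched. Of the Hep3B groups, the uncompressed one alone lacked columns under its own name, and the control columns of that line were assigned to it.

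Counts of the 6 Hep3B libraries were fitted together with edgeR 4.0.16 (limma 3.58.1, R 4.3.3), using TMM scaling and a robust quasi-likelihood fit with 3 groups. P-values were adjusted by Benjamini-Hochberg over all 14217 genes, with a threshold of 0.05. Every adjusted p in the text is from this fit unless another is named. Standard errors (SE) are the log2 fold change over the root of its F statistic. CPM are counts per 1e6 of the TMM-scaled library size. DESeq2 1.42.0 and other settings were tried as alternatives. On simulated data with 200 of 14217 genes changed, the weight against 3% PEG test found 65.7%, 91% and 98.5% of changes of 0.5, 1 and 2 log2 units. There, 9.57% of calls were false, above the nominal 5%. Far fewer genes were changed in the simulation than the 63.6% called in the data, so these rates may not hold for the data.

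Genes were named by a rule: called, not overlapping between groups, averaging at least 5 CPM over the 4 libraries, and among the 15 largest in either direction, or among the 2 with the smallest p per list and direction. NFAT5, AKR1B1, SLC5A3, SLC6A6, SGK1, CA9, VEGFA, ADM, CCN1, CCN2, ANKRD1, AFP, ALB and RB1 were named in any case. The genes, lists and rules were chosen with earlier results of these data known. HepG2 libraries were tested separately in the same way. Some genes are not reported here.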

Additional observations from a re-analysis of the deposited data

Results flagged for a closer look

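Of the 30 genes with the largest differences, 19 were tested in HepG2. In 4 of these, both HepG2 weight libraries moved one way against uncompressed cells and both Hep3B weight libraries the other way. The difference between the lines was not tested. HAL had a log2 fold change of -0.5992 in HepG2 (49.48 and 58.34 CPM against 82.97 and 80.24 CPM) and 2.06 in Hep3B. CCL20 had -0.3015 in HepG2 (377.9 and 368.4 CPM against 472.8 and 446.9 CPM) and 1.07 in Hep3B. SPINK1 had 1.0962 in HepG2 (4.105 and 4.837 CPM against 1.924 and 2.235 CPM) and -0.38 in Hep3B, where it did not pass edgeR's test (adjusted p = 0.208). GCNT3 had 0.8922 in HepG2 (12.35 and 14.21 CPM against 6.989 and 7.291 CPM) and -0.50 in Hep3B (adjusted p = 0.1).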

How the results depend on the processing

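All 9036 genes called between weight and 3% PEG kept their direction wherever they were tested again, and the call count stayed within 1.5 times except for 2 settings. With the spread taken over all 14 libraries, 4367 genes passed directly (2231 higher under the weight, 2136 in PEG), 217 for the weight against uncompressed (181 up, 36 down) and 4227 for PEG against uncompressed (2088 up, 2139 down). A test beyond a log2 fold change of 1 left 1128 (728 and 400), 62 (61 and 1) and 1070 (508 and 562). DESeq2 called 7815 genes directly and, for the weight against uncompressed, 1039 up. Scaling by library totals without TMM, added after seeing the data, gave 1810 down under the weight. It moved the share of direct calls higher under the weight from 51.3% to 41.7% and the median of all genes to -0.069. Leaving out 1 library gave 7909 to 8945 direct calls. For the weight against uncompressed it gave 1705 to 3013 (1007 to 1614 up, 629 to 1399 down). For PEG against uncompressed it gave 7931 to 9338. Differences between replicates 1 and 2 were little correlated across genes between groups (correlations 0.023, -0.103 and 0.13). Replicate 1 held the higher mitochondrial share in each group, so whether the numbers pair the libraries was not settled. A replicate block gave 9132, 2972 and 9163 calls, and crossing the weight numbers, also added later, 9229, 2956 and 9247. Of 184 named genes, 154 kept their side of the threshold with all 14 libraries, 100 in the test beyond a log2 fold change of 1, and 176 or more in every other setting run. The cause of these changes was not tested. With 2 libraries per group, small differences rest on few degrees of freedom.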

Other observations

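Some gene families outside the lists, picked by symbol pattern after results were seen, also differed; the counts are to be read against 32.6% of all genes higher under the weight and 31% higher in PEG. Of 20 cytosolic aminoacyl-tRNA synthetases, which load amino acids onto tRNA, 17 were higher in PEG (8 at 2-fold) and 2 under the weight, with a median log2 difference of -0.61. AARS1, the alanine enzyme, was at 567 and 581 CPM in PEG, 259 and 247 CPM under the weight and 269 and 271 CPM uncompressed. GARS1, the glycine enzyme, was at 845 and 835 CPM, 387 and 393 CPM, and 388 and 387 CPM. In both the weight libraries lay near the uncompressed level. QARS1, the glutamine enzyme, was higher under the weight (0.53). Of the 17 mitochondrial synthetases, 3 were higher under the weight and 5 in PEG, none at 2-fold, with a median of 0.01.

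RNA polymerase III, which makes tRNA, had 8 of 9 subunits higher in PEG (3 at 2-fold) and none under the weight. POLR3E was at 89.8 and 87.4 CPM in PEG and 36.7 and 36.1 CPM under the weight. Of 9 subunits of the CCT chaperonin, which folds actin and tubulin, 7 were higher in PEG, with a median of -0.19. Of 23 tubulins, 11 were higher under the weight (5 at 2-fold) and 3 in PEG. Mitochondrial ribosomal proteins divided, 22 of 78 higher under the weight and 17 in PEG.

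Among 802 processed pseudogenes, 219 (27.3%) were higher under the weight and 48 (5.99%) in PEG, against 32.6% and 31% of all genes. Such copies share sequence with their parent genes, and how reads were assigned to them is not known. Long intergenic noncoding RNAs numbered 70 of 298 higher under the weight (23.5%) and 90 in PEG (30.2%).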
